A study of Cubamyces sp. BRFM 1775 with 14 samples.

Results

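Of the 1052 genes in a deposited expression table of the fungus Leiotrametes sp. BRFM1775, 44 (4.18%) had higher values on pine and on aspen than on maltose and on cellulose, with a smaller excess or none on wheat straw. They were chosen from the deposited mean log2 value of each of 5 substrates by 3 conditions. Cellulose lay less than 1 log2 unit (2-fold) from maltose, the lower of pine and aspen lay at least 1 above the higher of maltose and cellulose, and wheat straw lay less than 1 above it. The first condition left 765 genes, the second 137 and the third 44. The other 93 genes of the 137 were also at least 1 higher on wheat straw and serve below as the nearest comparison. The values on the woods, wheat straw, maltose and cellulose therefore chose the genes, and they are described below without a test. The difference between pine and aspen was not itself a condition and was tested. The conditions did require both woods to be high, so they left out genes high on only 1 wood. Among genes with cellulose less than 1 from maltose, 72 were at least 1 higher on pine only and 29 on aspen only.

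Mycelium of strain BRFM1775 (Cubamyces sp. in GEO's organism field) was shaken at 120 rpm and 30 °C for 3 days in 100 ml of mineral medium with yeast extract, and its polyadenylated RNA was sequenced. The maltose cultures held 20 g/l of this soluble sugar. The cellulose, wheat straw (a grass) and pine (a softwood) cultures held 15 g/l of the solid and 2.5 g/l of maltose. Aspen (a hardwood) was also given at 15 g/l, but the labels misprint the maltose concentration of those cultures. An effect of the wood and one of the sugar therefore cannot be told apart between aspen and any other substrate, pine included. From the maltose cultures, the cellulose, wheat straw and pine cultures differed both in the solid and in the maltose concentration. Those effects cannot be told apart either. Per the labels, wheat straw had 2 samples and every other substrate 3, all of 1 strain, and it is not stated whether they came from separate flasks. The p-values therefore reflect only library-to-library spread, which may be technical. Mycelium was frozen together with the solid substrate, and RNA from any other organism on the plant material was not examined.

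White-rot fungi of the order Polyporales live on dead wood, which they decay with secreted enzymes against cellulose, hemicelluloses and lignin. Softwood lignin is built mainly of guaiacyl units and its main hemicellulose is a galactoglucomannan, whereas hardwood lignin also carries syringyl units and its main hemicellulose is a glucuronoxylan. Grass cell walls hold arabinoxylan, and part of it is linked to lignin through ferulic acid. The table names genes only by MycoCosm protein numbers and does not pair them with gene names or functions, so no role can be given to any of the 44, and the number of genes of a pathway or enzyme family among them is not given here.

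Most deposited values could be resolved into whole reads per library. This gave 3 libraries on maltose, pine and aspen and 2 on cellulose and wheat straw. Values above 12 on maltose, pine and aspen were not attempted. Libraries are numbered by size factor (0.426 to 1.61) from the lowest within a substrate, and this numbering is unrelated to the labels' replicates. Of the 44 genes, 32 were resolved in all 13 libraries, against 751 of the whole table. The median read number of these 32 genes ranged from 22.5 to 436.5 between libraries. Library values below are log2(normalised reads + 1), which understates the difference of genes with few reads, and are not divided by gene length. Because a library pools whole mycelium, more hyphae expressing a gene and more RNA per hypha cannot be told apart.

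The wood excess was moderate in most of the genes and large in a few. The wood margin, defined as the lower of pine and aspen minus the higher of maltose and cellulose, had a median of 1.44 (2.71-fold) and ranged from 1.01 to 3.44. It was at least 2 in 8 genes and below 1.5 in 25. Against the higher of maltose and cellulose, the median excess was 1.95 on pine and 1.65 on aspen. The highest of the 5 substrates was pine in 26 genes and aspen in 18, and the lowest was cellulose in 23, maltose in 19 and wheat straw in 2. Cellulose lay below maltose in 25 of the 44 genes and above it in 19.

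The columns of the table are not centred on each other. Their medians over all 1052 genes were 8.30 on maltose and 8.92 on cellulose, 9.20 on wheat straw, and 9.30 on pine with 9.13 on aspen. Taken gene by gene, the median difference from maltose was smaller: 0.56 on pine, 0.30 on aspen, 0.19 on wheat straw and 0.11 on cellulose. Less the median over all genes of the same quantity, the median excess of the 44 genes over the higher of maltose and cellulose was 1.94 on pine, 1.77 on aspen and 0.78 on wheat straw. When the columns were aligned on their medians, both woods still lay above maltose and cellulose in all 44 genes, but by at least 1 in only 15 of them. After quantile normalisation of the columns the number was 17, and after centring each column on the gene means by a median shift it was 28.

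**Figure D1:**
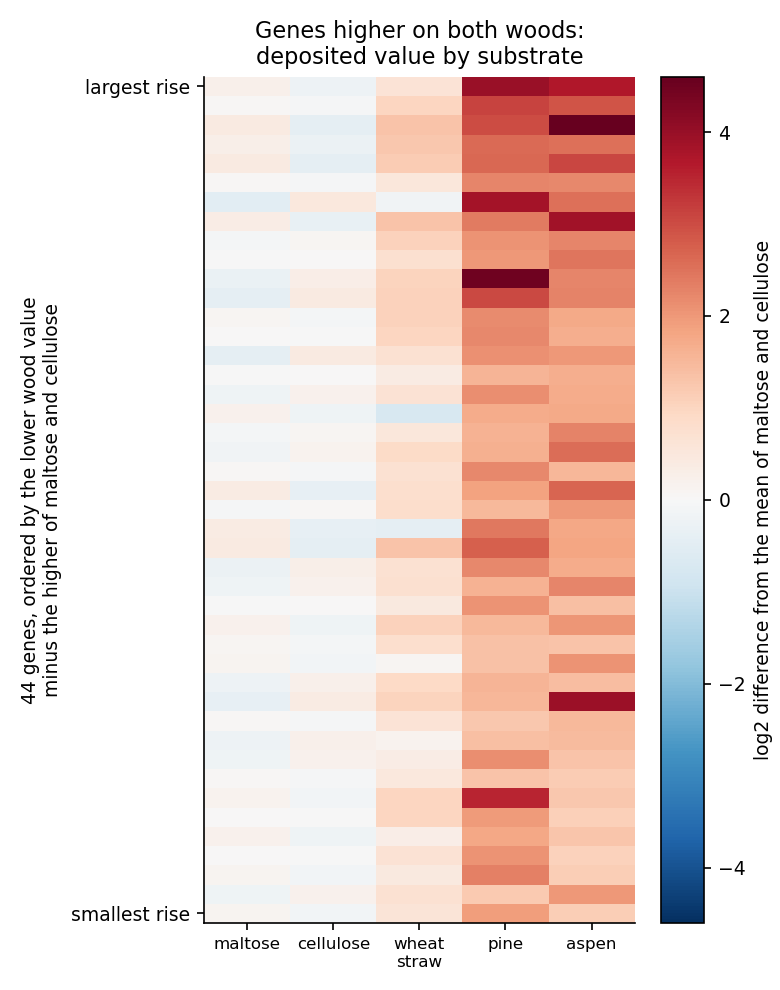
Deposited value of each of the 44 genes (rows) on the 5 substrates (columns), as the log2 difference from the gene's mean over maltose and cellulose, in red where higher and blue where lower. Rows run from the largest wood margin (3.44) to the smallest (1.01); pine and aspen are red in every row, and wheat straw lies below both woods in all of them, as the conditions require.

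Gene 1355546 had the widest wood margin of all, at 3.44, which is 10.9-fold. Its libraries stood at 5.08, 4.09 and 4.34 on maltose, 4.07 and 3.95 on cellulose, 4.75 and 5.05 on wheat straw, 7.99, 8.49 and 8.19 on pine, and 8.45, 7.93 and 7.46 on aspen. All 6 wood libraries lay far above the other 7, the pine and aspen libraries overlapped, and the wheat straw libraries fell within the range of maltose. In reads, it had 14 to 31 per library on maltose, 17 in both cellulose libraries, 33 and 45 on wheat straw, and 179 to 320 on the woods. The difference between pine and aspen was 0.28 (SE 0.305, limma, Benjamini-Hochberg adjusted p = 0.474).

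Gene 1245960 followed with a wood margin of 2.85 (7.20-fold), from deposited means of 10.81 on maltose and 10.71 on cellulose, 11.75 on wheat straw, and 13.88 on pine with 13.66 on aspen. Its wood values lay above 12, so resolving them into reads was not attempted and no spread is given there. Among genes resolved in every library, 1320004 came second with a wood margin of 2.59 (6.01-fold), and it was also the gene called higher on aspen, described below.

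In gene 1242402 the woods were closely matched and the margin was 2.17 (4.50-fold). Its libraries stood at 7.54, 7.58 and 7.33 on maltose, 7.26 and 7.50 on cellulose, 7.76 and 8.13 on wheat straw, 10.21, 9.42 and 9.42 on pine, and 9.40, 9.84 and 9.73 on aspen. Every wood library lay more than 1 above every other library, and the aspen libraries fell between the pine libraries or just below them. Pine minus aspen was 0.03 (SE 0.228, limma, Benjamini-Hochberg adjusted p = 0.932). The smallest difference between the woods belonged to gene 1323196, at 0.02 (SE 0.134, limma, Benjamini-Hochberg adjusted p = 0.914). Its libraries stood at 8.32, 8.32 and 8.11 on maltose, 7.99 and 8.11 on cellulose, 8.76 and 9.09 on wheat straw, 9.50, 9.42 and 9.57 on pine, and 9.40, 9.50 and 9.53 on aspen. These values form 3 separate steps, with maltose and cellulose lowest, wheat straw next, and the woods highest with overlapping ranges.

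**Figure D2:**
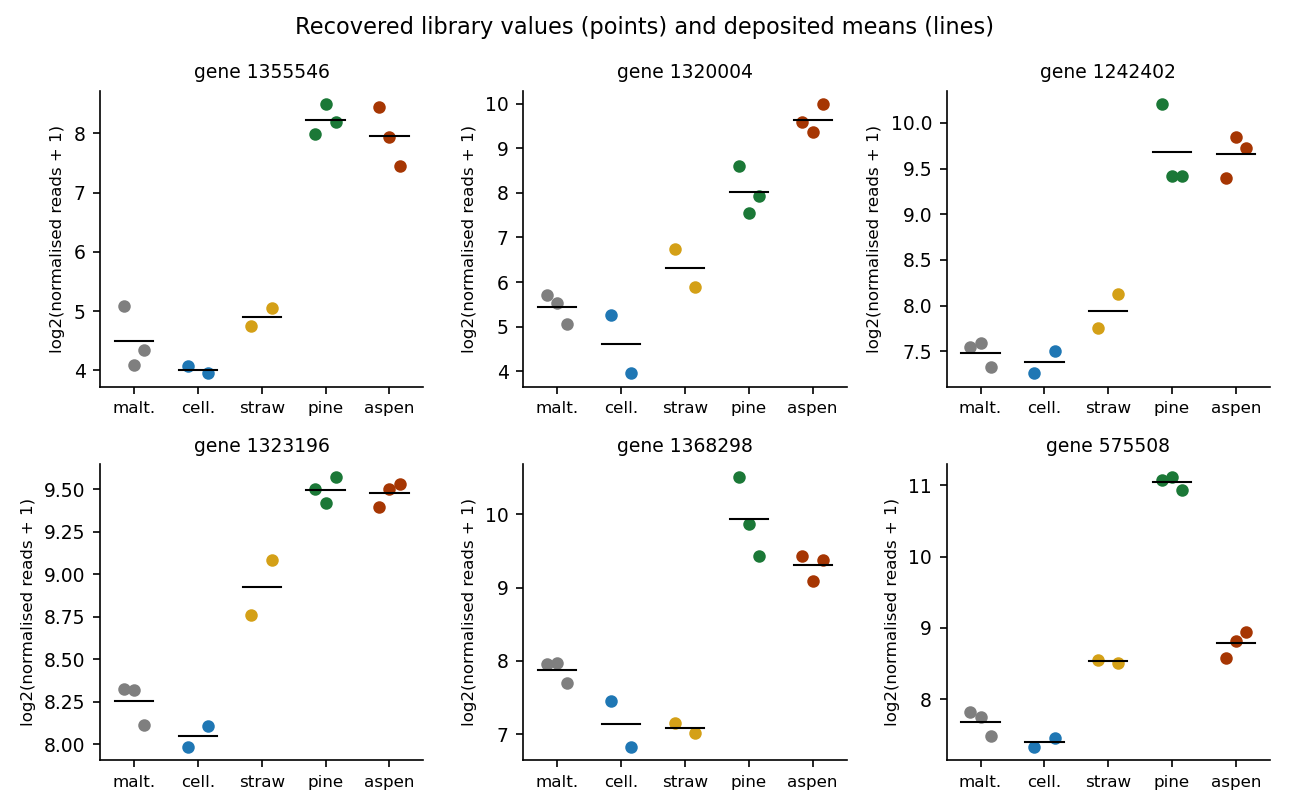
Library values, as log2(normalised reads + 1) (points), and deposited means (lines) of 6 of the 44 genes on maltose, cellulose, wheat straw, pine and aspen; each panel has its own vertical range. In all 6 panels every wood library lies above every maltose and cellulose library; gene 575508 is higher on pine than on aspen by 2.25 and gene 1320004 lower by 1.62.

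Wheat straw took an intermediate position for most of the 44 genes as deposited. Wheat straw minus the higher of maltose and cellulose had a median of 0.60 (range -0.92 to 0.99). It was between 0 and 0.5 in 15 genes, between 0.5 and 1 in 24, and at or below 0 in 5. The condition set the upper end of this range, and the conditions together place wheat straw below both woods in every gene (44 of 44, an order that 37.1% of all genes had), so nothing is read from that order. Wheat straw was thus above both maltose and cellulose in 39 of 44 genes (88.6%), where 40.5% of all genes had that order, but the number depended on scaling, at 16 with column medians aligned, 24 after quantile normalisation and 38 after the shift to gene means. At the median, wheat straw reached 30.3% of the mean wood excess. In the 93 genes it reached 80.2%, but the 44 and the 93 genes were divided by the wheat straw value itself, so the direction of this difference was fixed by the choice. The lower wood lay at least 1 above wheat straw in 21 of the 44 genes. Its median distance from wheat straw was 1.00, again with a direction fixed by the conditions.

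**Figure D3:**
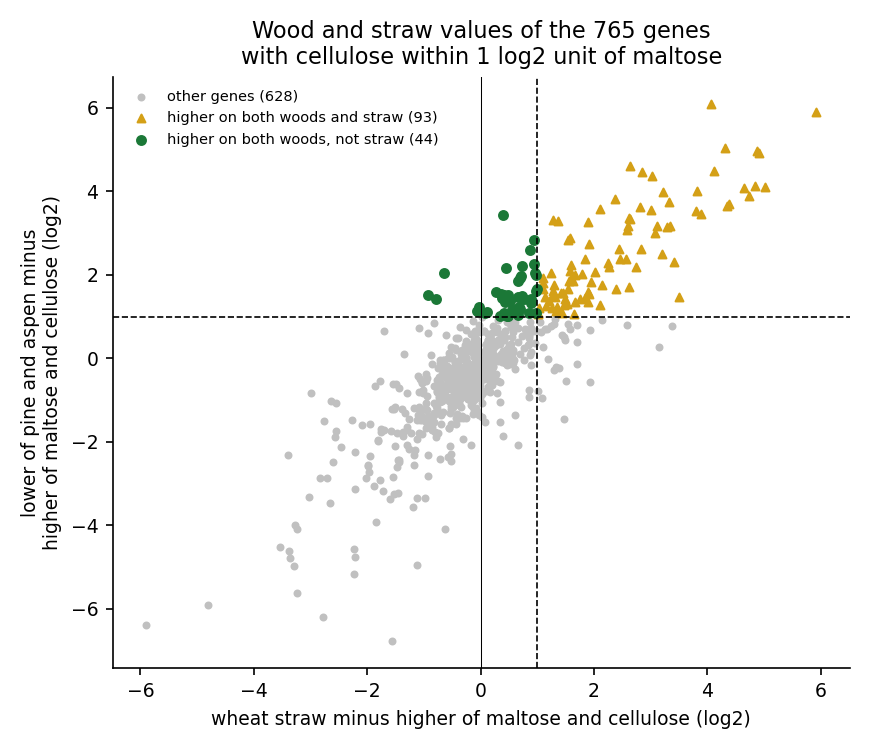
Wheat straw (horizontal) and the lower of pine and aspen (vertical), each minus the higher of maltose and cellulose in log2 units, for the 765 genes with cellulose less than 1 from maltose; dashed lines mark the limits of 1. The 44 genes (green) crowd against both limits, 24 of them between 0.5 and 1 on the horizontal axis, with 5 at or left of 0, and they border on the 93 genes (yellow) without a gap.

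The 5 genes at or below 0 were 1250071, 1368298, 1325338, 1349486 and 722471. The lowest of them, gene 1250071, lay 0.92 below maltose on wheat straw, and its libraries stood at 4.31, 4.64 and 4.47 on maltose, 3.99 and 4.17 on cellulose, 2.87 and 4.24 on wheat straw, 6.16, 6.07 and 5.75 on pine, and 6.22, 5.35 and 6.53 on aspen. The wood libraries were all higher than the rest, while the wheat straw mean rested on 2 libraries of 8 and 25 reads, the latter within the range of cellulose and maltose. In gene 1368298 the libraries stood at 7.95, 7.97 and 7.70 on maltose, 7.45 and 6.83 on cellulose, 7.15 and 7.01 on wheat straw, 10.50, 9.86 and 9.43 on pine, and 9.43, 9.09 and 9.38 on aspen. Both wheat straw libraries (179 reads each) lay below all 3 maltose libraries and between the cellulose libraries, and all wood libraries lay more than 1 above them.

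The 44 genes covered a wide range of read numbers. The mean of pine and aspen had a median of 9.32 (range 3.84 to 15.35), against 9.28 over all genes. It was above 10 in 17 genes, between 6 and 10 in 19 and below 6 in 8. Summed over the table after undoing the log, the 44 genes made up 1.14% of the normalised reads on maltose and 0.875% on cellulose, against 1.58% on wheat straw, with 3.29% on pine and 3.58% on aspen. The corresponding shares of the 93 genes were 2.48%, 2.13%, 15.15%, 18.93% and 17.75%. The read share of the 44 genes was thus slightly higher on aspen than on pine. The choice of the 44 favoured higher shares on the woods than on the other substrates. It did not set the order of maltose and cellulose, nor wheat straw above both. A share also depends on the summed values of all other genes on that substrate, so it does not give the level of the 44. The deposited value was higher on pine in 26 of the 44 genes and on aspen in 18.

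Gene 1406496 had the most reads on the woods, with deposited means of 12.27 on maltose and 13.10 on cellulose, 13.76 on wheat straw, and 15.73 on pine with 14.96 on aspen. Gene 1324449 was next, with deposited means of 11.73 on maltose and 12.12 on cellulose, 12.61 on wheat straw, and 14.06 on pine with 13.64 on aspen. In both genes cellulose lay above maltose, wheat straw above cellulose and the woods above wheat straw. The wood values lay above 12, so resolving them into reads was not attempted. The wheat straw reads were resolved, at 18776 and 18165 in gene 1406496 and 6926 and 9987 in gene 1324449. The intermediate value on wheat straw was thus seen in both libraries. On cellulose the 2 libraries held 8842 and 11059 reads of gene 1406496.

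The genes with the fewest reads were close to the counting limit. Gene 1331754 had 0, 0 and 6 reads on maltose, 2 in each cellulose library, 4 and 5 on wheat straw, 25, 1 and 2 on pine, and 48, 35 and 25 on aspen. Its aspen libraries were all high, but pine library 1 alone carried the pine value, and pine libraries 2 and 3 overlapped maltose and cellulose. Without pine library 1 this gene no longer met the conditions. Gene 1327599 had 0, 1 and 0 reads on maltose, 3 and 0 on cellulose, 2 and 4 on wheat straw, 59, 21 and 17 on pine, and 4, 14 and 6 on aspen. Every wood library was above every maltose and cellulose library here, and the lowest aspen library held as many reads as the higher wheat straw library.

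Most of the 44 genes were not called different between the 2 woods. Pine minus aspen had a median of 0.11 in the 44 genes (range -2.39 to 2.25), and of 0.11 over all genes. A call needed a limma adjusted p below 0.05 and a difference of at least 1. By this, 4 of the 44 genes were higher on pine, where 16.4% of all genes were called, and 1 was higher on aspen, where 6.46% of all genes were called. Genes with unresolved wood reads took their spread from other substrates, and they raise the share called higher on pine over all genes. Among genes resolved on both woods, 3 of 32 members were called higher on pine and 1 on aspen. The same calls numbered 82 and 57 among all 772 genes so resolved. With no size required, 15 of the 44 genes passed (12 higher on pine and 3 on aspen), against 42.9% of all genes. Genes high on only 1 wood had been left out by the conditions, so lower shares than over all genes are partly set by the choice. In the 93 genes also higher on wheat straw, 24 were called higher on pine and 6 on aspen, with a median difference of 0.52. Of these, the 50 resolved on both woods held 9 called higher on pine and 5 on aspen. Their median difference was 0.27, against 0.02 in the 32 members so resolved. The direction over the 44 genes depended on scaling: pine was the higher wood in 26 genes as deposited, in 20 with column medians aligned, in 21 after quantile normalisation and in 22 after the shift to gene means.

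Gene 575508 showed the clearest difference between the woods. Its libraries stood at 7.82, 7.75 and 7.48 on maltose, 7.34 and 7.46 on cellulose, 8.55 and 8.51 on wheat straw, 11.07, 11.11 and 10.94 on pine, and 8.58, 8.82 and 8.95 on aspen. The pine libraries stood apart from all others, while the lowest aspen library was barely above wheat straw, so the place of this gene among the 44 rested on a narrow aspen margin of 1.10. It rose 4.77-fold on pine against aspen (log2 difference 2.25, SE 0.144, limma, Benjamini-Hochberg adjusted p = 9.49e-06), and it was called in all 22 alternative settings that included it. Gene 1327599, the low-count gene above, was higher on pine by 2.21 (SE 0.680, limma, Benjamini-Hochberg adjusted p = 0.0243). Its call was lost in 4 of 21 settings, among them the one without pine library 1 (59 reads) and those without aspen library 1 or 3, with adjusted p-values between 0.0143 and 0.0879 over all settings.

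The other called genes higher on pine, named after their values were seen, were 1315244 and 1367900. Gene 1367900 stood at 9.89, 9.89 and 9.91 on maltose, 9.84 and 9.92 on cellulose, 10.58 and 10.55 on wheat straw, 12.47, 12.07 and 11.37 on pine, and 10.83, 10.72 and 11.26 on aspen. No pine library overlapped aspen, and the difference was 1.04 (SE 0.243, limma, Benjamini-Hochberg adjusted p = 0.00707), close to the limit of 1: leaving out pine library 1 or 2 or aspen library 1 or 2 ended the call, with differences between 0.79 and 1.34 over all settings. Gene 1315244 had deposited means of 14.05 on pine and 12.85 on aspen, with a difference of 1.196 (SE 0.164, limma, Benjamini-Hochberg adjusted p = 0.00182). Resolving the wood reads of this gene was not attempted, so its error was taken from the maltose, cellulose and wheat straw libraries. Its maltose value lay above 11, where 10 of 83 false values tried on maltose were also matched by whole reads.

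Gene 1320004 was the sole member called higher on aspen. Its libraries stood at 5.72, 5.52 and 5.06 on maltose, 5.25 and 3.95 on cellulose, 6.75 and 5.88 on wheat straw, 8.59, 7.55 and 7.92 on pine, and 9.58, 9.35 and 9.99 on aspen. The substrates form a staircase in which maltose and cellulose overlap, wheat straw is above them, pine above wheat straw and aspen above pine, with no overlap between the last 3. Aspen exceeded pine 3.08-fold (pine minus aspen -1.62, SE 0.389, limma, Benjamini-Hochberg adjusted p = 0.00812), and the call held in all 22 settings that included the gene. A still wider difference, -2.39 in gene 1331754, did not pass (SE 0.974, limma, Benjamini-Hochberg adjusted p = 0.0685). Its pine library 1 lay among the aspen libraries, and without that library the gene was called, with a difference of -3.66 (limma, Benjamini-Hochberg adjusted p = 0.00395).

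**Figure D4:**
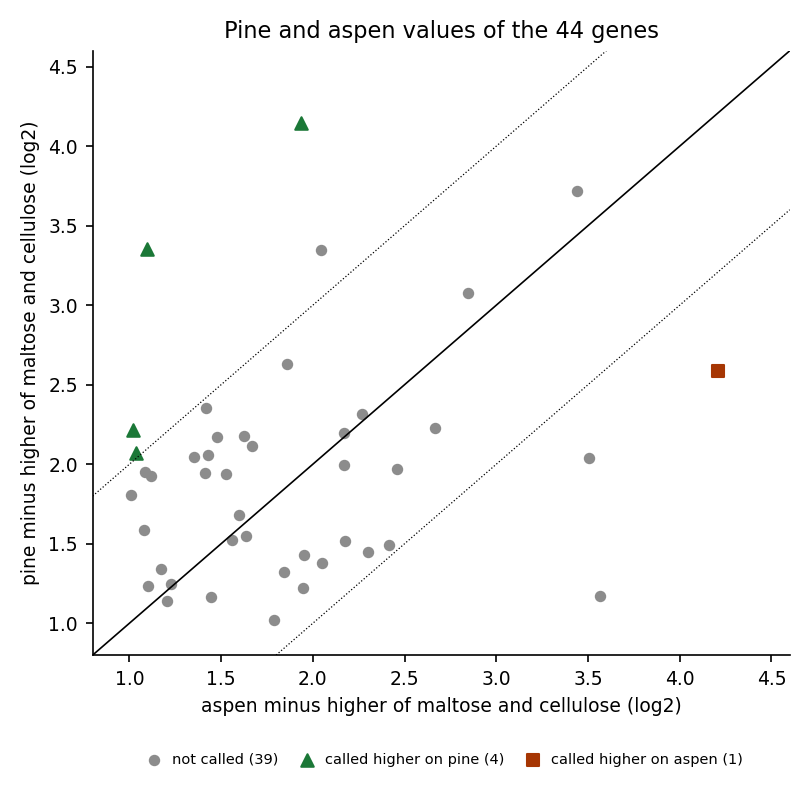
Pine (vertical) and aspen (horizontal), each minus the higher of maltose and cellulose in log2 units, for the 44 genes; the solid line marks equal values and the dotted lines a difference of 1 between the woods. The 4 genes called higher on pine (triangles) and the 1 called higher on aspen (square) lie outside the dotted lines, and 3 further genes beyond them were not called.

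The separate libraries kept the order of the means in most resolved genes. Every wood library lay above every maltose and cellulose library in 29 of the 32 genes (90.6%), where 19.7% of the 751 resolved genes had this order. Every wood library lay above every wheat straw library as well in 25 of the 32 (78.1%), against 9.72% of the resolved genes. The conditions used these same contrasts, so nothing further is read from these shares. The 3 genes with overlap between the woods and maltose or cellulose were 1331754, 26925 and 1294979. In gene 26925 the overlap came from the cellulose libraries, which stood at 5.25 and 8.91 (40 and 562 reads). All wheat straw libraries lay above all maltose and cellulose libraries in 14 of the 32 genes (43.8%), where 24.4% of resolved genes had that order; this contrast too was among the conditions. Between the woods, which the conditions did not compare, all pine libraries were above all aspen libraries in 7 of the 32 genes (21.9%, against 25.3% of resolved genes) and all aspen libraries above all pine libraries in another 7 (21.9%, against 27.6%).

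By library, the median of the 32 genes relative to the mean of the maltose and cellulose libraries was 0.71 and 0.83 on wheat straw, 2.18, 1.77 and 1.62 on pine, and 1.83, 1.99 and 1.80 on aspen. In these medians neither wheat straw library came near any wood library, but the conditions fixed the direction of this gap, so nothing is read from it. Single genes were not all so separated: every wood library lay above every wheat straw library in 25 of the 32. Over all 751 resolved genes the same medians were between 0.02 and 0.34 on these 8 libraries, again highest in pine library 1. Pine library 1 was the highest of the pine libraries in 19 of the 32 genes (59.4%) and in 53.8% of all genes resolved on pine. It lay at least 1 above the mean of pine libraries 2 and 3 in 5 of the 32 genes (15.6%), namely 1324025, 1327599, 1331559, 1331754 and 26925, and in 14.4% of all genes resolved on pine. Without it, the median of pine minus aspen over the 32 genes moved from 0.02 to -0.18.

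**Figure D5:**
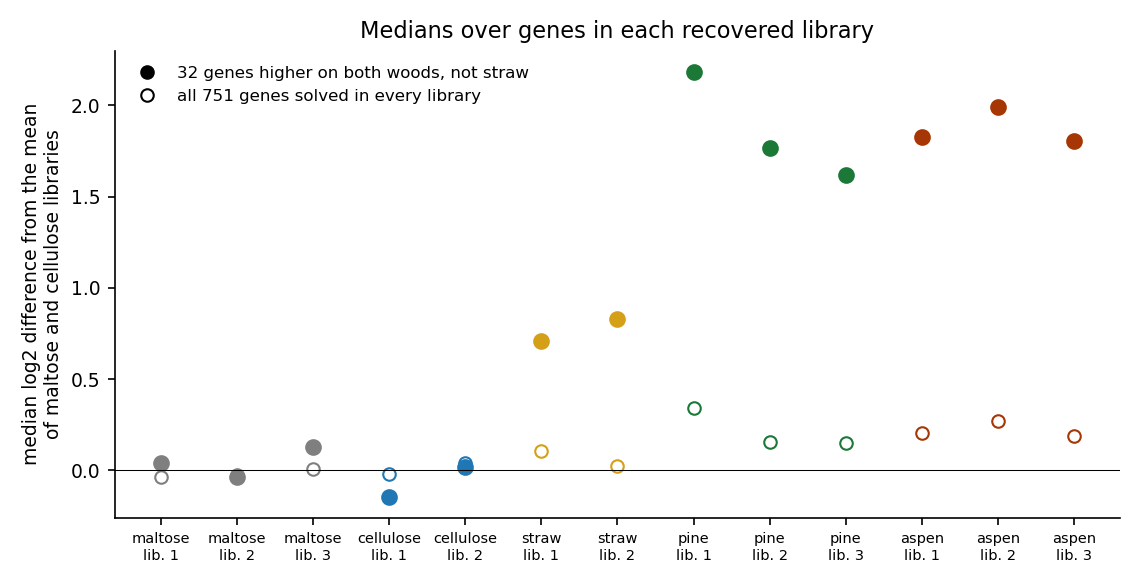
Median over genes, in each of the 13 libraries, of the log2 difference from the mean of the maltose and cellulose libraries, for the 32 of the 44 genes resolved in every library (filled) and for all 751 genes so resolved (open). The filled points lie near 0 on maltose and cellulose, at 0.71 and 0.83 on wheat straw and between 1.62 and 2.18 on the woods; the open points stay at or below 0.34.

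Gene 1324025 had, after 1331754, the widest spread on a wood. Its libraries stood at 8.88, 8.90 and 9.23 on maltose, 8.32 and 9.40 on cellulose, 10.25 and 9.73 on wheat straw, 10.26 and 10.10 in pine libraries 2 and 3, and 10.73, 10.77 and 10.53 on aspen. Pine library 1 was far higher, with 5821 reads against 1092 and 996, for an SD of 1.63 on the log2 scale (n = 3), while pine libraries 2 and 3 were level with wheat straw. The pine values of genes 1324025, 575508 and 1367900 were above 11, where 7 of 107 false values tried on pine were also matched by whole reads, so their separate pine libraries are less certain than those of lower values. The spread between libraries of the 44 genes was otherwise like that of the table, with a median SD of 0.28 on pine (0.31 over all genes) and 0.23 on aspen (0.23).

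The limits of the 3 conditions pass through a continuous range of genes. The gene just inside the wood limit was 682685 with a margin of 1.01, and the one just outside it 1346523 with 0.98. On the wheat straw limit the neighbours were 1324025 (0.99) and 1331141 (1.00), and on the limit between cellulose and maltose they were 1325338 (0.95) and 184793 (1.06). Within 0.1 of the wood limit lay 7 genes inside and 4 outside, and the same numbers lay within 0.1 of the wheat straw limit. Of the 32 resolved genes, 9 met the conditions whichever single library was left out and 23 failed them without at least 1 library. Genes 1355546, 1242402, 1250071 and 1323196 were among the 9, whereas 575508, 1320004 and 1327599 were not: without maltose library 3, for example, the margin of gene 575508 was 1.00 (0.9978 before rounding), just under the limit.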

How the data were processed

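The members and settings were chosen with earlier results of these data known. The authors deposited 1 normalised log2 read count per substrate and gene, per the file headers. TopHat2, HTSeq and DESeq (version 1.5) are named, per the submitters' processing notes. The genome build, the gene selection and the way libraries were combined were not given in the sources used here.

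Each deposited value was taken as a mean of log2(reads × scale + 1) across libraries. The 16 lowest values of a column served to find its scales, and all of the 60 lowest then came out whole within 1e-09. The labels list 3 cellulose samples, but the column needed 2 libraries, and which sample is absent is not known. Reads were kept where exactly 1 set of whole numbers fitted, for 906 (maltose), 1052 (cellulose), 1050 (wheat straw), 797 (pine) and 831 (aspen) genes. In columns of 3 libraries, values above 12 were not attempted, and the search was limited to 4-fold each way above 9. False values found a match in 1.1% (maltose), 0.991% (pine) and 0.949% (aspen) of trials. No library duplicated another: chi-square per degree of freedom between those on 1 substrate was 12.66 or more.

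Pine minus aspen was fitted over all 1052 genes and 13 libraries with limma 3.58.1 in R 4.3.3 (moderated test with trend, Benjamini-Hochberg adjustment). The test had been planned for 14 separate samples. Where a gene's libraries were not resolved on a wood, its deposited mean was kept and its spread came from its other substrates. The procedure was tested on simulated data. The labels give no batch. Genes named were the 2 at each extreme of margin, level, wheat straw, spread and wood difference, and those beside each limit. Gene sequences were not used here. Python 3.11.15 and NumPy 2.4.6 were used.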

Additional observations from a re-analysis of the deposited data

How the results depend on the processing

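The number of genes that met the conditions (44) was 26 with column medians aligned (10 of them among the 44), 20 with a wheat straw limit of 0.5, and 21 with a constant of 32 before the log, against 32 on the same genes; quantile normalisation gave 31 and the shift to gene means 30. The median wood margin was 0.70 with medians aligned, 0.87 after quantile normalisation and 1.11 after the shift, a setting chosen after seeing the data. With the constant of 32 it was 1.00, against 1.42 on the same genes. The median of wheat straw minus the higher of maltose and cellulose was -0.0912 with medians aligned, 0.0311 after quantile normalisation and 0.365 with the constant of 32. That constant left 2 genes called higher on pine and 2 on aspen, against 3 and 1 on the same genes. Leaving out single libraries gave 31 to 46 genes meeting the conditions, but only genes resolved on that substrate could be counted. The same genes gave 32 with all libraries where a pine library was left out (31 to 33 without it) and 34 for aspen (33 to 37). On genes resolved on maltose, 43 met the conditions with all libraries and 36 to 38 without 1 maltose library, the largest loss on the same genes. These settings also gave a median wood margin of 1.31 to 1.47, a median wheat straw difference of 0.46 to 0.63, a median of pine minus aspen of -0.18 to 0.12, 1 to 5 genes called higher on pine (4 with all libraries, 3 on the genes resolved on a wood) and 1 to 3 on aspen. The cause was not tested. Calls of 575508 and 1320004 were kept in all 22 settings that included them. The call of 1315244 was kept in all 11 that included it, but none of these left out a pine or aspen library. No paired analysis was possible because the deposited columns carry no replicate numbers. Depth limits the genes with few reads, and unresolved wood reads leave 12 of the 44 genes without a spread on at least 1 substrate.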
